A study of Mus musculus with 12 samples.

Results

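Fibronectin, periostin, versican and thrombospondin are proteins of the extracellular matrix or bind to it. The 5 further genes encode proteins that take part in cutting, taking up or protecting that matrix. Described here are 9 genes: Fn1, Postn, Mrc2, Vcan, Thbs1, Plau, Plaur, Timp1 and Mmp14, out of 36491 genes in the count table. They were listed by name, and all 9 were found by symbol. Fn1, Postn and Mrc2 were put on the list because they had been noted as lower in cells from unshielded than from shielded mice after LPS. Their levels in that comparison are therefore a description, with no test.

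The cells came from the brains of adult male C57BL/6J wild-type mice aged 6 months. All mice of the 4 groups had a bone marrow transplant and then food with PLX5622, a CSF1 receptor inhibitor that removes most microglia, for 2 weeks, followed by 6 weeks of standard chow. In one pair of groups the transplant was done with a head shield and in the other pair without. Within each pair, 1 group was injected in the peritoneum with lipopolysaccharide (LPS), a bacterial product that activates Toll-like receptor 4, at a dose of 50 µg, and 1 with saline. Cells were taken 6 hours later with magnetic beads against CD11b, a surface protein of microglia that other myeloid cells also carry. Each group had 3 libraries, and the labels do not say whether a library is 1 animal or a pool, and a p-value here reflects only how libraries vary, which may be technical.

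Library totals ran from 18090977 to 60495968 counts, and all 3 unshielded LPS libraries were deeper than the other 9. For shielded libraries 2 and 3 without LPS the title says no LPS but the treatment field says LPS. The mean log2 level of 10 LPS-response genes was 2.94 to 4.51 in the 6 libraries titled as without LPS, these 2 included at 3.31 and 2.94, and 7.34 to 8.66 in the 6 LPS libraries. The groups below follow the titles. Leaving out both libraries, or grouping them by the field, leaves 1 shielded library without LPS, so neither fit can measure spread within that group. With both libraries grouped by their treatment field instead, 0 of the calls below on the 9 genes passed in either LPS comparison or in the shield comparison without LPS (edgeR, with 0, 6 and 1 genes at an unadjusted p under 0.05). All 11 microglia markers examined, such as P2ry12, Tmem119 and Cx3cr1, had reads in every group. Their summed level was 25630 to 30530 CPM (the read count of a gene scaled to library size) in shielded and 15650 to 18700 CPM in unshielded libraries without LPS, and 19370 to 22370 and 12950 to 14140 CPM after LPS.

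Urokinase, the product of Plau, is a secreted protease that sits on its receptor, the product of Plaur, and turns plasminogen into plasmin. Plasmin digests fibrin and matrix proteins and can activate metalloproteinases. Mmp14 encodes a metalloproteinase anchored in the cell membrane that cuts collagens and activates the secreted protease of Mmp2, and Timp1 encodes a secreted inhibitor of metalloproteinases. Mrc2 encodes a receptor of the mannose receptor family that binds collagen, carries it to lysosomes and can join the urokinase receptor. Healthy adult brain tissue holds little fibronectin outside its vessel walls and meninges, and activated macrophages are known to make fibronectin, versican and thrombospondin.

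The reference table of promoters held 5 of the 9 genes. The 250 bases before the start site are shown for the 4 of them that were tested for LPS and passed in both kinds of mice (values below), from RefSeq on GRCm38.p6, read 5′ to 3′ on the strand of the gene. Timp1 is among the 4 as a gene that had to differ, for a reason given below. Capitals mark matches to the Sp1 motif GGGCGG or its reverse CCGCCC and to the AP-1 motif TGANTCA, which reads the same on both strands.
Plaur, chr7:24462233-24462482, plus strand: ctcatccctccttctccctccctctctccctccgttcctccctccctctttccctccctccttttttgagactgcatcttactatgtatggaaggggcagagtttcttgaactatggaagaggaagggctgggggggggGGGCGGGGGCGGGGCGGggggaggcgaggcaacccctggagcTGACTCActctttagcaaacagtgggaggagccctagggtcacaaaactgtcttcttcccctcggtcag
Mmp14, chr14:54431348-54431597, plus strand: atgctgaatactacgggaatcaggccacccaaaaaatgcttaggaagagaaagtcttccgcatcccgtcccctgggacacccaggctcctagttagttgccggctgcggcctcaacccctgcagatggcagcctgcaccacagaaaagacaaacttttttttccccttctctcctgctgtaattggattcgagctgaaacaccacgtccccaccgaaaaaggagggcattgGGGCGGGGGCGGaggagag
Timp1, chrX:20869916-20870165, plus strand: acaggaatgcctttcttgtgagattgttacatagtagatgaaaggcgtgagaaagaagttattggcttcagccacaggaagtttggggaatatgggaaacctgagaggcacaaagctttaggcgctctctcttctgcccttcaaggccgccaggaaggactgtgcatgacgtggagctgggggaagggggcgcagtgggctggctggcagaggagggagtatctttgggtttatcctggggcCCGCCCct
Vcan, chr13:89742513-89742762, minus strand: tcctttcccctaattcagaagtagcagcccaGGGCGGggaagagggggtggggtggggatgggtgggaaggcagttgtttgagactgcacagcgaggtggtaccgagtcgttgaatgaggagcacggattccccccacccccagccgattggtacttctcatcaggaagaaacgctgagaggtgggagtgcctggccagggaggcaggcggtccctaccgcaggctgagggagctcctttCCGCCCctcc
The Plaur window held 1 AP-1 match, 69 to 63 bases before the start, and 3 Sp1 matches, the last 2 of which share a base. Mmp14 held 2 Sp1 matches within the last 19 bases, Timp1 held 1 and Vcan 2, and these 3 windows had no AP-1 match. Of 32851 windows of the same length in the table, 6.7% held an AP-1 match and 32.7% an Sp1 match. No window of the 4 held the TATA box TATAAA, present in 12.4% of all windows, or the NF-kB consensus motif, present in 7.3%. Postn, which had no LPS test, has 2 listed starts and is not shown; 1 of its windows held TATAAA, 26 to 21 bases before the start, and neither held the other motifs. A match describes the letters of the window and nothing about binding.

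**Figure D1:**
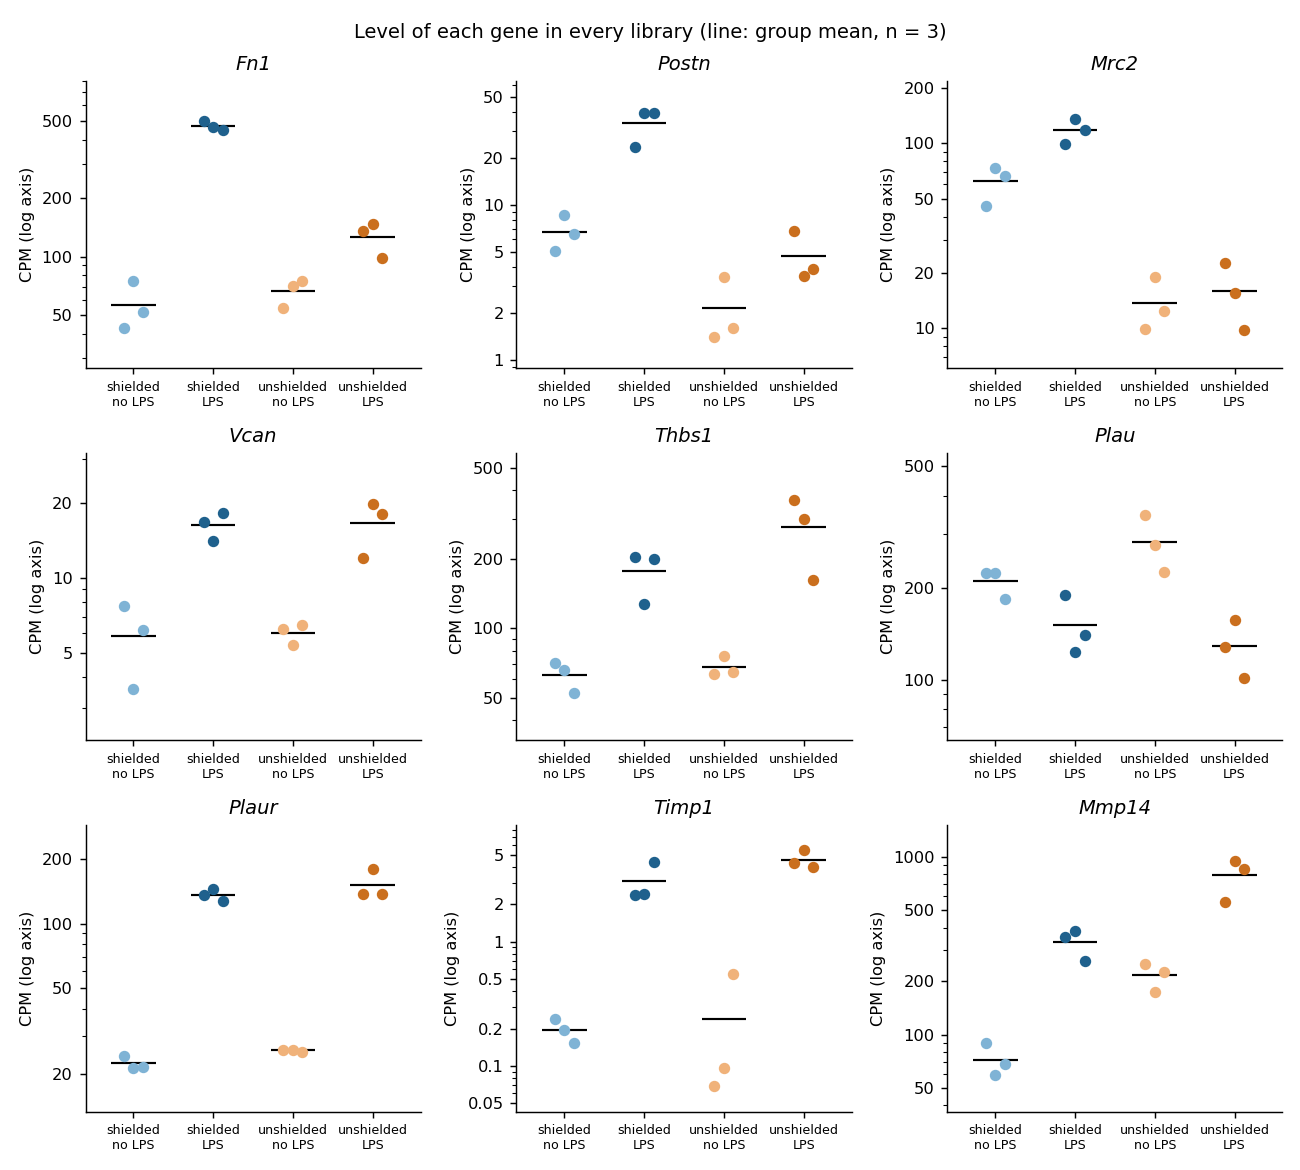
Level of the 9 genes in each of the 12 libraries, in CPM on log axes, with a point per library and a line at the mean of each group of 3. Fn1 stood at 446.2 to 500.7 CPM in shielded LPS libraries and at 146.4 CPM or below in all others, while Plaur stood at 126.7 to 179.8 CPM in all LPS libraries and at 26.0 CPM or below in the rest.

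Among the matrix glycoproteins, Fn1, which encodes fibronectin, a protein that links cells through integrins to the matrix around them, had its highest level in shielded mice given LPS. Its level was 500.7, 463.9 and 446.2 CPM in the shielded LPS libraries and 135.4, 146.4 and 98.53 CPM in the unshielded LPS libraries. Without LPS it was 42.61, 74.68 and 52.11 CPM in shielded and 54.59, 70.54 and 74.53 CPM in unshielded libraries. The groups given LPS did not overlap each other or the groups without LPS, and the groups without LPS overlapped. CPM values include TMM scaling, which evens out differences in library makeup, and are not divided by gene length, so levels of different genes are not compared. In a mixed cell preparation, fewer cells of a type and less RNA per cell cannot be told apart.

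The fitted log2 fold change of Fn1 with LPS was 3.06 ± 0.22 (SE) in shielded and 0.93 ± 0.20 in unshielded mice, or 8.34-fold and 1.91-fold. After LPS the log2 difference of unshielded from shielded mice was -1.89 ± 0.21. These are given without a test because the LPS libraries were used in choosing the gene. Without LPS, in libraries other than those in which Fn1 was noted, unshielded and shielded mice differed by 0.24 ± 0.20. The edgeR quasi-likelihood test with Benjamini-Hochberg adjustment over 18875 genes gave adjusted p = 0.589 (95% interval -0.20 to 0.68). Apol7d, which shares exon bases with Fn1 on the other strand, had at most 12 counts in any library.

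Postn encodes periostin, a matricellular protein that is made mostly by fibroblast-like cells and binds collagen and integrins. Its level was 23.72, 39.1 and 39.54 CPM in shielded LPS libraries, 5.043, 8.628 and 6.543 CPM in shielded libraries without LPS, 6.754, 3.469 and 3.879 CPM in unshielded LPS libraries and 1.414, 3.419 and 1.614 CPM in unshielded libraries without LPS. Shielded libraries lay above unshielded ones in both states, and unshielded LPS libraries overlapped shielded libraries without LPS. Without LPS the log2 difference of unshielded from shielded mice was -1.70 ± 0.38 (edgeR adjusted p = 0.0143), a 3.26-fold lower level. Among libraries without LPS, leaving out shielded library 2 lost that call (adjusted p = 0.0622), as did leaving out unshielded library 1 or 3 (0.0737 and 0.0746). It was also lost with no filter on low counts (0.0592). Without both libraries with the conflicting field, which leaves 1 shielded library, the log2 difference was -1.30 and was not called. With LPS the log2 fold change was 2.35 ± 0.36 in shielded and 1.19 ± 0.38 in unshielded mice, and the difference of unshielded from shielded mice after LPS was -2.86 ± 0.36, all without a test.

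Mrc2, the collagen uptake receptor, had levels of 99.02, 136 and 118.9 CPM in shielded LPS libraries and 46.05, 74.03 and 66.93 CPM in shielded libraries without LPS. It stood at 22.54, 15.59 and 9.735 CPM in unshielded LPS libraries and at 9.942, 18.97 and 12.34 CPM in unshielded libraries without LPS. Every shielded library lay above every unshielded one, and the unshielded groups overlapped. Without LPS the log2 difference of unshielded from shielded mice was -2.20 ± 0.32 (edgeR adjusted p = 0.00144), a 4.59-fold lower level. Leaving out both libraries with the conflicting field left 1 shielded library and gave -1.77, which was not called. Leaving out any 1 library of the comparison kept the call. After LPS the difference was -2.88 ± 0.33, without a test. The log2 fold change with LPS was 0.92 ± 0.30 in shielded and 0.23 ± 0.32 in unshielded mice, also without a test, and the latter was -0.13 without unshielded LPS library 1 and 0.00 without unshielded library 1 without LPS.

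Fibroblasts and meningeal cells express Fn1, Postn and Mrc2, so their markers were read beside these genes. The summed level of 12 such markers was 35.36 to 39.13 CPM in shielded LPS, 28.45 to 34.6 CPM in shielded libraries without LPS, 21.03 to 32.74 CPM in unshielded LPS and 31.97 to 35.42 CPM in unshielded libraries without LPS. None of the 12 was at 0 throughout a group, and Mgp, a matrix protein also made by vascular cells, led the sum in shielded LPS libraries with a mean of 19.44 CPM. Fibrillar collagen Col1a1 had group means of 0.41 to 2.07 CPM, lowest in shielded LPS libraries. Without LPS, 0 of the 10 tested markers of this list passed the edgeR threshold between unshielded and shielded mice. After LPS 1 of 10 was higher and 1 lower in unshielded mice. Summed microglia markers were also lower in unshielded libraries, as given above. The sum of 9 border-associated macrophage markers, led by Mrc1, was higher, at 1013 to 1174 against 398.4 to 487 CPM without LPS and 2426 to 3078 against 383.9 to 532.5 CPM after LPS. Of the 9, 4 were called higher and 0 lower without LPS, and 7 and 0 after it. Over all genes the same test called 3.98% higher and 6.85% lower without LPS, and 19.1% and 25.6% after it. Without LPS, Lyve1, Cbr2, Folr2 and Clec10a had means of 12.69, 22.96, 25.47 and 9.957 CPM in unshielded and 10.79, 21.66, 24.34 and 10.31 CPM in shielded libraries. The part of these cells in the differences was not tested.

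Vcan encodes versican, a large proteoglycan that binds hyaluronan and that monocytes and oligodendrocyte precursors make. It stood at 16.79, 14.09 and 18.22 CPM in shielded LPS and 12.07, 19.84 and 18.13 CPM in unshielded LPS libraries, against 7.715, 3.587 and 6.175 CPM and 6.271, 5.393 and 6.456 CPM without LPS. Libraries with and without LPS did not overlap in either kind of mouse. The gene rose with LPS by 1.48 ± 0.25 on the log2 scale in shielded mice (edgeR adjusted p = 0.000259) and by 1.46 ± 0.25 in unshielded mice (adjusted p = 0.000543). These increases differed by -0.02 ± 0.35 (unshielded minus shielded, adjusted p = 0.972, 95% interval -0.78 to 0.74). Without LPS the shield difference was 0.05 ± 0.25 (adjusted p = 0.956), with a 95% interval of -0.50 to 0.59. Among markers of oligodendrocyte precursors 6 of 7 fell and 1, the proteoglycan gene Cspg4, rose with LPS in shielded mice. In unshielded mice 1 rose, 2 fell and 4 were not called. Summed over the list, they stood at 47.45 to 83.28 CPM with LPS and 65.11 to 117.3 CPM without it in shielded mice, and at 54.19 to 69.63 and 65.1 to 79.4 CPM in unshielded mice. Cspg4 led the sums with LPS, so they do not show the fall of the other markers. Its means were 45.24 against 11.61 CPM in shielded and 23.99 against 9.988 CPM in unshielded mice. Olig1 had means of 9.673 against 34.55 CPM and 18.76 against 24.11 CPM. Monocyte markers rose in 5 of 11 and fell in 1 with LPS in shielded mice and rose in 8 and fell in 1 in unshielded mice. Over all genes 32.4% rose and 35.1% fell with LPS in shielded mice, and 24.3% rose and 18.8% fell in unshielded mice. The monocyte markers summed to 383.8 to 600.3 against 357 to 459.4 CPM in shielded and 796.2 to 1212 against 472.4 to 627.3 CPM in unshielded mice. Nr4a1 led that sum, with means of 256.4 against 330.9 CPM in shielded and 423.5 against 349.6 CPM in unshielded mice. Itgal followed, at 111.4 against 36.12 and 310.2 against 161 CPM. Ccr2 was lower with LPS (6.13 against 18.21 and 6.851 against 14.25 CPM), and Ly6c2 was higher (11.54 against 2.615 and 17.92 against 1.359 CPM). No marker of either list was at 0 throughout a group. The part of these cells in the Vcan level was not tested.

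Thbs1 encodes thrombospondin 1, which binds CD47 and CD36, can activate latent TGF-beta and restrains the growth of vessels. Its level was 205.1, 128.2 and 199.8 CPM in shielded LPS and 362.5, 300.2 and 162.2 CPM in unshielded LPS libraries. Without LPS it was 70.67, 65.82 and 52.43 CPM in shielded and 63.62, 76.27 and 64.47 CPM in unshielded libraries. All LPS libraries lay above all libraries without LPS, and shielded and unshielded libraries overlapped in both states. Thbs1 rose with LPS by 1.497 ± 0.269 in shielded (edgeR adjusted p = 0.000554) and by 2.015 ± 0.273 in unshielded mice (adjusted p = 0.000136), or 2.82-fold and 4.04-fold. The increases differed by 0.52 ± 0.37 (adjusted p = 0.374). The unshielded LPS libraries ranged most, with an SD of 102.5 CPM around a mean of 275 CPM. Platelets carry much thrombospondin 1, and 8 platelet and megakaryocyte markers summed to 19.66 to 23.39 CPM in shielded LPS, 22.03 to 28.15 CPM in shielded libraries without LPS, 10.09 to 12.85 CPM in unshielded LPS and 10.76 to 13.58 CPM in unshielded libraries without LPS. Gp9 made up most of the shielded sums, with a mean of 14.76 CPM after LPS and 16.83 CPM without, and Ppbp, a defining platelet transcript, had group means of at most 0.25 CPM. With LPS 1 of the 7 tested platelet markers rose and 3 fell in shielded mice, and 1 rose and 1 fell in unshielded mice. The shares of all genes given with the monocyte markers apply here too.

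In the plasminogen system, the protease and its receptor went opposite ways. Plau was at 222.9, 224.4 and 183.8 CPM in shielded and 345.9, 275.8 and 225.5 CPM in unshielded libraries without LPS. After LPS it was at 189.6, 123 and 140.7 CPM in shielded and 127.8, 156.8 and 101.7 CPM in unshielded libraries. The unshielded groups did not overlap, and the shielded groups overlapped through shielded LPS library 1. Plau fell by 1.13 on the log2 scale (SE 0.20) with LPS in unshielded mice (edgeR adjusted p = 0.000786), a 2.19-fold lower level. In shielded mice its log2 fold change was -0.48 ± 0.20 (adjusted p = 0.0521), just outside the threshold. There it was called when libraries were blocked by replicate number, both within the shielded pair (-0.50, adjusted p = 0.0152) and over all 12 libraries (-0.48, adjusted p = 0.0168). It was also called with only the shielded groups in the fit (-0.48, 0.0326), with library totals in place of TMM (-0.83, 0.00118) and without shielded LPS library 1 (-0.67, 0.0128). The effects in the 2 kinds of mice differed by -0.66 ± 0.28 (adjusted p = 0.149). Without LPS, Plau had a log2 difference of 0.42 ± 0.20 between unshielded and shielded mice (adjusted p = 0.243), called only when those 2 groups were blocked by replicate number (0.43, adjusted p = 0.00968).

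Plaur, the urokinase receptor gene, had the smallest standard errors of the 9. It stood at 24.33, 21.42 and 21.69 CPM in shielded and 26.0, 25.86 and 25.45 CPM in unshielded libraries without LPS. After LPS it stood at 135.3, 144.6 and 126.7 CPM in shielded and 136.8, 179.8 and 137.7 CPM in unshielded libraries. All LPS libraries were far above all others, and the shielded and unshielded LPS libraries overlapped. Plaur rose by 2.59 ± 0.11 on the log2 scale in shielded mice (edgeR adjusted p = 1.37e-08) and by 2.56 ± 0.11 in unshielded mice (adjusted p = 3.07e-08), which is 6.02-fold and 5.88-fold. The difference between these increases was -0.04 ± 0.15 (adjusted p = 0.89), with a 95% interval of -0.37 to 0.30. Without LPS the shield difference was 0.20 ± 0.11 (adjusted p = 0.344).

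Of the proteases and inhibitors, Mmp14 was higher both with LPS and in unshielded mice. Its level without LPS was 89.18, 58.84 and 67.97 CPM in shielded and 248.8, 173.8 and 225.3 CPM in unshielded libraries. After LPS it was 354.1, 382.7 and 258.8 CPM in shielded and 559.9, 949.3 and 859.4 CPM in unshielded libraries. None of the 4 groups overlapped another. LPS raised Mmp14 by 2.20 ± 0.24 on the log2 scale in shielded mice (edgeR adjusted p = 7.41e-06) and by 1.87 ± 0.23 in unshielded mice (adjusted p = 5.44e-05). The 2 increases differed by -0.33 ± 0.32 (adjusted p = 0.493). Without LPS, unshielded mice were higher by 1.58 ± 0.23 (adjusted p = 0.00105), a 3-fold difference. Without both libraries with the conflicting field, which leaves 1 shielded library, this was 1.27 and was not called. Leaving out any 1 library kept the call. After LPS the difference was 1.25 ± 0.23, as a description.

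Timp1 was sparse without LPS and passed the filter on low counts only through the LPS libraries, so its LPS tests are on a gene that had to differ. It had 11, 6 and 7 counts in shielded and 3, 2 and 19 counts in unshielded libraries without LPS, or 0.2371, 0.1939 and 0.1517 CPM and 0.06841, 0.0963 and 0.5476 CPM. After LPS it had 79, 61 and 138 counts in shielded (2.381, 2.414 and 4.418 CPM) and 240, 282 and 215 counts in unshielded libraries (4.277, 5.496 and 4.01 CPM). All 6 LPS libraries lay above all 6 others, and the third unshielded library without LPS lay apart from its companions. Timp1 rose by 3.96 ± 0.53 on the log2 scale in shielded (edgeR adjusted p = 3.74e-05) and by 4.22 ± 0.53 in unshielded mice (adjusted p = 4.56e-05). Without unshielded library 3 without LPS the latter was 5.79, and the shield difference without LPS moved from 0.32 ± 0.66 (adjusted p = 0.87) to -1.29 (adjusted p = 0.318). The difference of LPS effects, 0.26 ± 0.79 (adjusted p = 0.843), was then 1.83 (adjusted p = 0.0975), and -0.33 (adjusted p = 0.776) without unshielded library 1 without LPS.

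**Figure D2:**
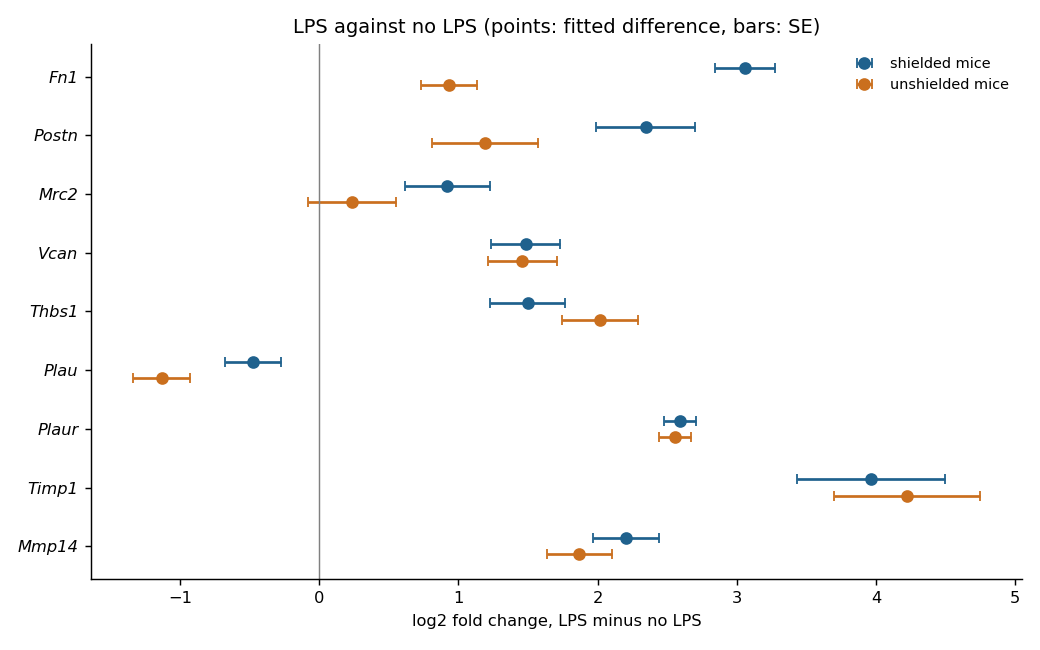
Fitted log2 fold change with LPS for each gene in shielded (blue) and unshielded (orange) mice, with bars of 1 SE. The 2 points of Vcan, Plaur, Timp1 and Mmp14 lie close together, those of Fn1 lie at 3.06 and 0.93, and only Plau lies below 0 in both.

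Of the other 6 genes, which were also listed with earlier results of these data known, 5 rose with LPS and 0 fell in shielded mice, and 5 rose and 1 fell in unshielded mice. Timp1, which had to differ, is among the 5 in each. The LPS counts, medians and separations given here include Timp1, so its share in them is no evidence of an LPS effect. Its log2 fold changes, 3.96 in shielded and 4.22 in unshielded mice, were the largest of the 6 and raise both medians. In an alternative fit of the shielded pair blocked by replicate number, a pairing the labels do not give, Plau fell too (edgeR adjusted p = 0.0152). In the main test 32.4% of all 18875 genes rose and 35.1% fell in shielded mice, and in unshielded mice 24.3% rose and 18.8% fell. The 6 had a median log2 fold change of 1.85 in shielded and 1.94 in unshielded mice, against -0.14 and -0.06 over all genes tested. All 9 genes passed the filter on low counts, Timp1 as described above. Of the same 6 genes, 5 had libraries with LPS wholly above those without it in shielded mice, where 34.1% of all genes were so separated upwards and 35.7% downwards. In unshielded mice 5 were separated upwards and 1 downwards, against 29.6% and 31.7%. The difference of LPS effects was called for 0 of the 6 by edgeR, with 1, Plau, at an unadjusted p under 0.05, and for 0 by DESeq2, also with 1 unadjusted. Over all genes 13.3% (2512 genes) were called in that test, and 6391 genes without shielded LPS library 3.

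For the shield without LPS, 1 of 9 genes was higher in unshielded mice (Mmp14) and 2 were lower (Postn and Mrc2), where 3.98% of all genes were called higher and 6.85% lower. These 2043 genes became 1139 without shielded library 2, and 1171 and 1094 without unshielded library 1 or 3, all without LPS. The median over the 9 was 0.20, and over all genes 0.00. The groups did not overlap for 3 genes higher and 2 lower, against 14.2% and 19.4% of all genes. Postn and Mrc2 were listed as lower in unshielded mice after LPS, so nothing is read from these counts without LPS. After LPS, 3 of the 9 (Fn1, Postn and Mrc2) were at least 2-fold lower in unshielded mice and 1 (Mmp14) at least 2-fold higher. At that fold 4.57% of all genes were lower and 17.0% higher, and nothing is read from this count since the list was made with this comparison in view. The remaining genes had log2 differences after LPS of 0.03 ± 0.24 (Vcan), 0.63 ± 0.26 (Thbs1), -0.23 ± 0.20 (Plau), 0.16 ± 0.11 (Plaur) and 0.58 ± 0.41 (Timp1). Shielded and unshielded LPS libraries overlapped for each of these 5, while over all genes 21.8% were separated upwards and 27.6% downwards.

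**Figure D3:**
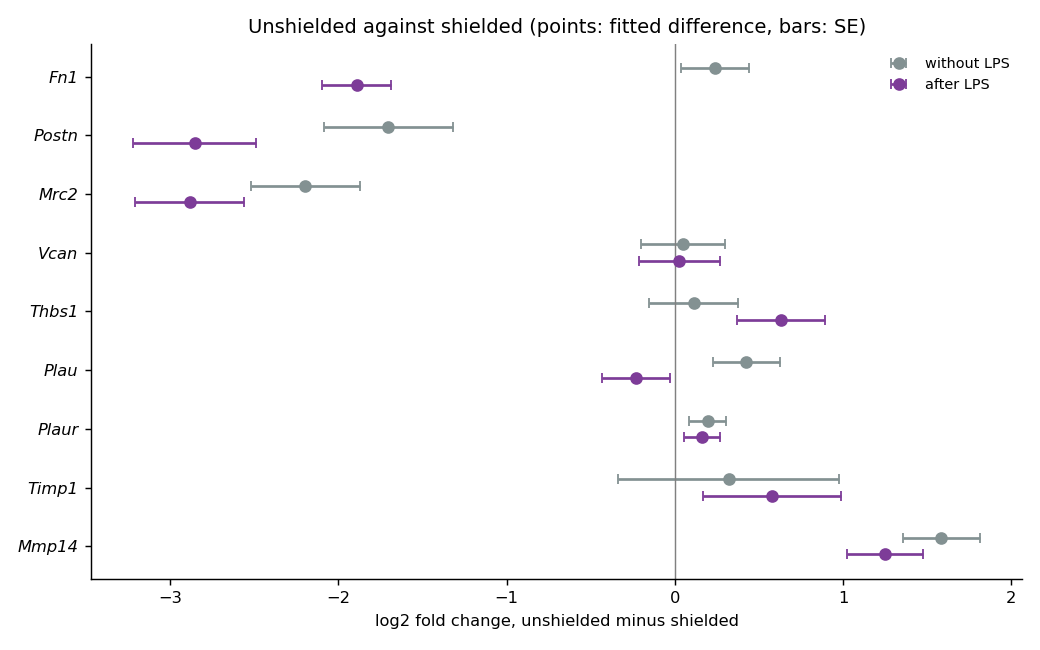
Fitted log2 difference of unshielded from shielded mice for each gene without LPS (grey) and after LPS (purple), with bars of 1 SE. Mrc2 and Postn lie below 0 and Mmp14 above 0 in both states, while Fn1 lies at 0.24 without LPS and at -1.89 after it.

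How the log2 CPM of the 9 genes moved together over the 12 libraries is given as a description. Pearson's r was 0.954 between Plaur and Timp1, 0.94 between Vcan and Plaur, 0.924 between Thbs1 and Plaur and 0.846 between Plaur and Mmp14. Fn1 had r = 0.819 with Postn, 0.79 with Plaur, 0.731 with Timp1, 0.714 with Vcan and 0.569 with Mrc2. Postn and Mrc2 had r = 0.903, and Mrc2 had r = 0.138 with Plaur and r = -0.387 with Mmp14. Fn1, Postn and Mrc2 were picked on the LPS libraries that enter these values, so nothing is read from how they move together. Plau had a negative r with each of the other 8, from -0.853 with Timp1 to -0.215 with Mrc2. The libraries of a group share treatment and shield, so these values mostly describe the 4 group means. Among 9268 or 9269 other genes that averaged 3 or more in log2 CPM, those most like Fn1 were the phospholipid flippase gene Atp10a (r = 0.984), Atad3a, of a mitochondrial ATPase (0.983), and Srsf2, of a splicing factor (0.983). For Postn they were Cd101, of an immune surface protein (0.984), Creb3l2, of a transcription factor of the secretory pathway (0.983), and the exchanger gene Slc24a3 (0.982). For Mrc2 they were Phgdh, the first enzyme of serine synthesis (0.988), St14, of the membrane protease matriptase (0.982), and Ric3, of a receptor chaperone (0.982). Phgdh had group means of 122.1 CPM in shielded LPS, 57.12 CPM in shielded libraries without LPS, 21.38 CPM in unshielded LPS and 17.64 CPM in unshielded libraries without LPS.

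Further genes of the pathway were read from 5 lists, and their counts are to be set beside the shares of all genes by the same edgeR test. With LPS 32.4% rose and 35.1% fell in shielded mice, and 24.3% rose and 18.8% fell in unshielded mice. Without LPS 3.98% were higher and 6.85% lower in unshielded than in shielded mice. Of 16 tested partners of the plasminogen system, 10 rose and 3 fell with LPS in shielded mice and 9 rose and 1 fell in unshielded mice, with median log2 fold changes of 0.56 and 0.63, against -0.14 and -0.06 over all genes. F3, which encodes tissue factor, the starter of clotting, rose by 2.15 ± 0.15 in shielded mice (edgeR adjusted p = 1.27e-07). Anxa2, whose product holds plasminogen on the cell surface, rose by 1.19 ± 0.18 and 1.56 ± 0.18 in shielded and unshielded mice (adjusted p = 8.71e-05 and 2.33e-05). S100a10, its partner, rose by 0.60 ± 0.20 in shielded and by 1.46 ± 0.20 in unshielded mice (adjusted p = 0.0187 and 0.000105). The difference between these was not called (adjusted p = 0.0679). Lrp1, a receptor that clears protease and inhibitor complexes, fell by 0.76 on the log2 scale in shielded mice (adjusted p = 0.0014). Without LPS, 1 of the 16 was higher and 3 were lower in unshielded mice. Lower were Serpine2, an inhibitor of urokinase and thrombin (-1.75 ± 0.22, from 306.6 ± 55 to 91.22 ± 31 CPM, SD, n = 3 each, edgeR adjusted p = 0.000472), and Tfpi, the tissue factor inhibitor (-1.22 ± 0.16, adjusted p = 0.000472). After LPS, when 19.1% of all genes (3596) were higher and 25.6% lower by the same test (2134 and 2242 higher without shielded LPS library 1 or 2), 6 of the 16 were higher and 5 lower, among them Serpine2 again (-1.97 ± 0.22, adjusted p = 3.6e-05).

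Of 24 tested metalloproteinases and inhibitors, 9 rose and 9 fell with LPS in shielded mice, and 8 rose and 6 fell in unshielded mice, with medians of 0.05 and -0.17. Mmp19, a secreted metalloproteinase, rose by 3.78 ± 0.13 and 3.44 ± 0.13 (edgeR adjusted p = 5.67e-09 and 1.53e-08). Adam10, a sheddase of many surface proteins, rose by 1.09 ± 0.10 and 1.01 ± 0.10 (adjusted p = 9.83e-07 and 5.14e-06). The inhibitor gene Timp2 fell by 0.88 and by 0.57 on the log2 scale (adjusted p = 4.92e-06 and 0.000352), unlike Timp1. Mmp2, of the gelatinase that Mmp14 activates, changed by -0.834 ± 0.136 in shielded and by -1.285 ± 0.136 in unshielded mice (adjusted p = 0.000179 and 1.2e-05). The difference between these was not called (adjusted p = 0.139). Without LPS 1 was higher and 2 lower in unshielded mice, among them Adamts1, of a protease that cuts versican (-1.65 ± 0.27, adjusted p = 0.00242). After LPS 5 were higher and 5 lower, with Adamts1 at -2.00 ± 0.27 (adjusted p = 0.00014).

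Of 26 tested matrix and matricellular proteins, 6 rose and 14 fell with LPS in shielded mice and 6 rose and 7 fell in unshielded mice, with medians of -0.84 and -0.50. The list holds neural proteoglycans such as Bcan and Ncan, and with LPS 7 of 8 neuron, 7 of 7 oligodendrocyte and 5 of 9 endothelial markers were also lower in shielded mice, against 0, 1 and 7 in unshielded mice. Summed neuron markers stood at 32.89 to 162.9 CPM with LPS and 184.6 to 339.5 CPM without it in shielded mice, and at 115.6 to 218.3 and 271.9 to 314.6 CPM in unshielded mice. Oligodendrocyte markers summed to 424.4 to 1319 and 1771 to 2796 CPM in shielded and 1054 to 1892 and 1766 to 2273 CPM in unshielded mice, and endothelial markers to 123.1 to 161.1 and 215.9 to 350.7 CPM, and 119.6 to 191.5 and 305.4 to 338 CPM. No marker of these lists was at 0 throughout a group, and their part in the list's counts was not tested. Spp1, which encodes osteopontin, rose by 4.37 ± 0.23 and 4.04 ± 0.23 (edgeR adjusted p = 4.01e-08 and 1.95e-07). Tgfbi, of a TGF-beta-induced matrix protein, rose by 2.14 ± 0.17 in unshielded mice, from 474.4 ± 77 to 2088 ± 323 CPM (SD, n = 3 each, adjusted p = 1.2e-06). Without LPS 4 were higher and 3 lower in unshielded mice. Emilin1, of an elastic fibre glycoprotein, was higher by 2.77 ± 0.28 (adjusted p = 0.000244), and Lox, of the collagen crosslinking enzyme, was lower at -2.21 ± 0.31 (adjusted p = 0.000765). After LPS 7 were higher and 4 lower, with Tgfbi at 3.10 ± 0.18 (adjusted p = 5.76e-07) and Lox at -2.45 ± 0.32 (adjusted p = 7.39e-05).

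Of 19 collagen and collagen uptake genes, 5 rose and 10 fell with LPS in shielded mice, and 5 rose and 7 fell in unshielded mice, with medians of -0.68 and -0.53. Col27a1, of a fibrillar collagen, fell by 1.90 and by 1.36 on the log2 scale (edgeR adjusted p = 9.12e-07 and 3.1e-05). Plod1, of a collagen lysyl hydroxylase, rose by 1.11 ± 0.10 and 1.30 ± 0.10 (adjusted p = 1.65e-06 and 1.4e-06). The shield difference of Mrc1, of the mannose receptor and of the same family as Mrc2, had the opposite sign to that of Mrc2. Mrc1 was higher in unshielded mice by 1.57 ± 0.17 without LPS (adjusted p = 0.000229) and by 3.48 ± 0.18 after LPS (adjusted p = 5.76e-07), when it stood at 1865 ± 228 against 167.7 ± 41.9 CPM (SD, n = 3 each). In all, 2 of the 19 were higher and 3 lower without LPS, and 5 higher and 3 lower after it.

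Of 22 tested matrix receptors, 6 rose and 10 fell with LPS in shielded mice and 6 rose and 4 fell in unshielded mice, with medians of -0.38 and -0.20. Sdc4, of a heparan sulphate proteoglycan that binds fibronectin, rose by 3.84 ± 0.20 and 3.51 ± 0.19 (edgeR adjusted p = 2.58e-08 and 1.56e-07). Itga5, of the alpha chain of the fibronectin receptor, rose by 3.21 ± 0.18 in shielded mice (adjusted p = 3.85e-08), from 31.33 ± 1.53 to 289 ± 62 CPM (SD, n = 3 each). Cd47, a receptor of thrombospondin 1, rose by 0.82 ± 0.12 in shielded and by 1.74 ± 0.12 in unshielded mice (adjusted p = 5.83e-05 and 4.9e-07). Cd36, another, fell by 2.156 and by 1.199 (adjusted p = 3.4e-05 and 0.00243). Without LPS 4 were higher and 4 lower in unshielded mice, among them Itga4, of an integrin chain that binds fibronectin (2.20 ± 0.29, adjusted p = 0.000782), and Selplg, of a selectin ligand (-1.72 ± 0.21, adjusted p = 0.000354). After LPS 8 were higher and 6 lower, with Itga4 at 3.35 ± 0.31 (adjusted p = 1.85e-05). Of the 107 genes tested in these 5 lists, the difference of LPS effects was called for 12, against 13.3% of all genes.

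**Figure D4:**
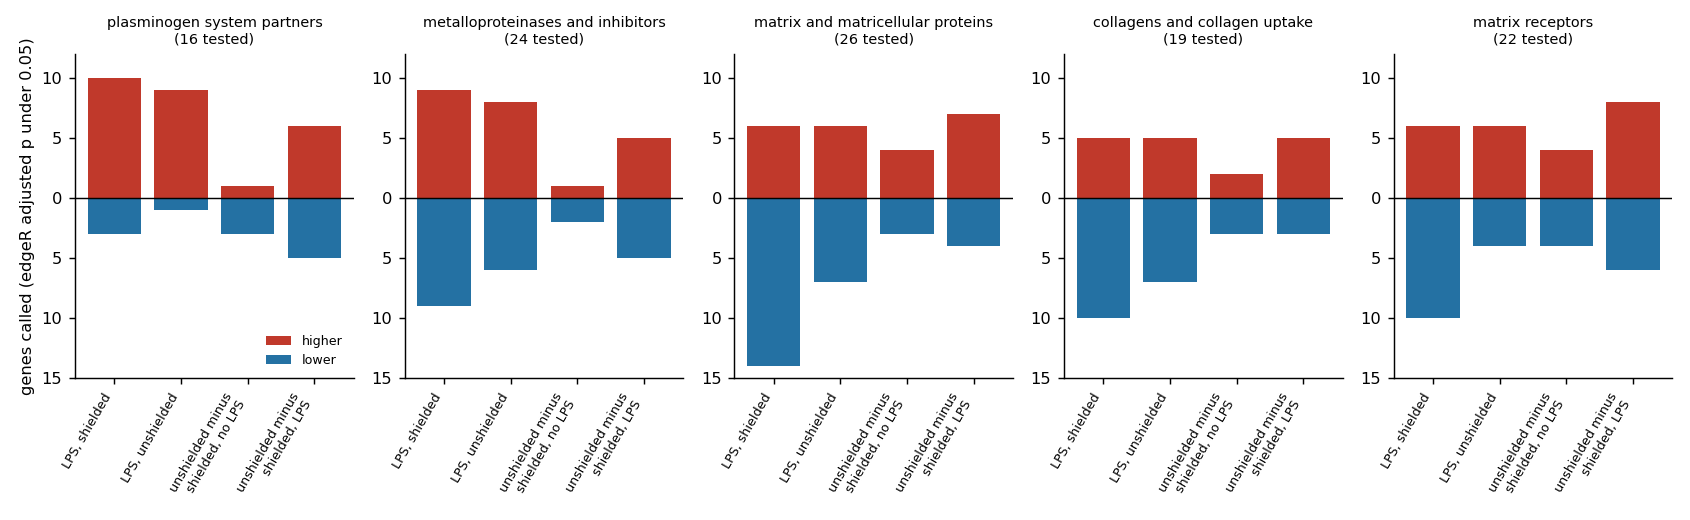
Number of genes of each list that passed the edgeR threshold as higher (above 0) or lower (below 0) in 4 comparisons. LPS in shielded mice called the most genes in each list, with 14 of 26 matrix and matricellular genes lower in shielded mice, and the shield without LPS called the fewest.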

How the data were processed

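RNA from magnetically sorted brain cells was amplified linearly and sequenced, per the labels' protocols. The submitters' processing notes name FastQC, STAR, HTSeq and build mm9, and the annotation, strand setting and versions were not stated there. The authors deposited raw counts per gene for 36491 genes, of which 254 identifiers had no symbol and 12 shared one. Reads of genes that overlap in exons (Fn1 with Apol7d, Thbs1 with Gm29233, and among named genes Adam17, Anxa2, Itga4, Mmp19, Ric3, Spp1 and Srsf2) may be split or lost in counting.

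Counts were scaled by TMM and filtered with filterByExpr (minimum count 10, minimum total 15), which left 18875 genes. A single edgeR 4.0.16 quasi-likelihood model (robust, R 4.3.3, limma 3.58.1) held all 12 libraries in 4 groups of 3 by title. Tests are two-sided with Benjamini-Hochberg adjustment over all genes tested and a threshold of 0.05. SE is the log2 fold change divided by the root of F, and 95% intervals are approximate. Log2 CPM used a prior count of 2. The code was tested on simulated data. Depth was 18090977 to 60495968 counts, and amplified reads are not independent molecules. No 2 libraries of a group agreed within sampling noise (chi-square per degree of freedom 12.5 to 47.2).

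The 9 genes, the lists and the tests were chosen with earlier results of these data known. Fn1, Postn and Mrc2 were tested only between shielded and unshielded mice without LPS. List genes named are from the up to 2 called genes of smallest p per direction, list and comparison that averaged 2 or more in log2 CPM, and some are left out for length. The main model did not pair libraries, and a block by replicate number was run as an alternative for every comparison. For LPS in shielded mice, deviations of same-numbered libraries from their group means had r = 0.112, 0.194 and 0.547. Shielded LPS library 1 had r = 0.399 with shielded library 2 without LPS, so the numbers are not shown to be pairs. The labels give no pairing. Alternatives were DESeq2 1.42.0, other scaling, no filter, fewer libraries and the replicate block.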

Additional observations from a re-analysis of the deposited data

Results flagged for a closer look

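For 12 genes of the lists the effect of LPS differed between unshielded and shielded mice by a test of the difference itself (edgeR, unshielded minus shielded, log2). As a share of the list genes tested, this is no more than the 13.3% of all genes called in the same test. Mmp15, of a membrane metalloproteinase, is 1 of them (1.18, adjusted p = 0.0499) but averaged 1.24 in log2 CPM, under the floor of 2 for named genes, and is named after its value was seen. The other 11 are given with no explanation, and each of their calls was lost when the 2 libraries with the conflicting field were grouped by that field.

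Tgfbi, of a TGF-beta-induced matrix protein, rose by 0.49 ± 0.16 (SE) in shielded and by 2.14 ± 0.17 in unshielded mice, a difference of 1.64 (adjusted p = 0.00195). Mrc1, of the mannose receptor, fell by 0.42 in shielded and rose by 1.48 ± 0.17 in unshielded mice, a difference of 1.90 (adjusted p = 0.00129). F3, of tissue factor, rose by 2.15 ± 0.15 in shielded and by 0.76 ± 0.14 in unshielded mice, a difference of -1.39 (adjusted p = 0.00209). These 3 calls held without the conflicting libraries, a fit that leaves 1 shielded library without LPS.

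Itga5, of a fibronectin receptor chain, rose in both, by 3.21 ± 0.18 in shielded and 2.22 ± 0.17 in unshielded mice, a difference of -0.98 (adjusted p = 0.0161). Cd47, a thrombospondin receptor, had a difference of 0.92 (adjusted p = 0.00468). Itga6, of a laminin receptor chain, had a difference of 0.83 (adjusted p = 0.00645). P4ha1, of a collagen prolyl hydroxylase, rose by 0.45 ± 0.13 in shielded and fell by 0.45 in unshielded mice, a difference of -0.90 (adjusted p = 0.00893). Without the conflicting libraries the differences were -0.997 (Itga5), 0.921 (Cd47), 0.873 (Itga6) and -0.915 (P4ha1), and none of them was called.

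The other 4 calls lay close to the threshold and were lost when most single libraries were left out. Lrp1 had a difference of 0.84 (adjusted p = 0.0321), Thbd, of the clotting regulator thrombomodulin, 0.93 (adjusted p = 0.0495), the sheddase gene Adam17 -0.57 (adjusted p = 0.0484) and Emilin1 1.33 (adjusted p = 0.0442). Without the conflicting libraries the difference was 0.792 for Lrp1, 0.709 for Thbd and -0.528 for Adam17, and none of these was called.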

How the results depend on the processing

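Conflicting fields weighed most, but leaving out both such libraries, or grouping them by the field, leaves 1 shielded library without LPS. Neither fit can measure spread within that group. Grouping by the field also puts libraries at 3.31 and 2.94 in LPS-response genes with shielded LPS libraries at 8.1 to 8.66. With both left out, Postn, Mrc2 and Mmp14 kept the sign of their shield difference without LPS, and no call on the 9 genes passed there. With the conflicting libraries grouped by the field, no call on the 9 genes passed for LPS in shielded mice, LPS in unshielded mice or the shield without LPS. Without those libraries, genes called of all tested went from 12738 to 8369 for LPS in shielded mice, 2043 to 292 for the shield without LPS and 2512 to 148 for the difference of LPS effects. List counts without LPS then were, higher and lower, 0 and 2 (plasminogen), 0 and 1 (metalloproteinases), 3 and 1 (matrix), 1 and 1 (collagens) and 2 and 1 (receptors), and for LPS in shielded mice 6 and 1, 9 and 7, 4 and 11, 3 and 5, and 5 and 7. Grouped by the field, the all-gene counts were 0, 117 (from 8128, LPS in unshielded mice), 0, 1464 (from 8423, the shield after LPS) and 0. With library totals, 4042 genes rose and 9131 fell with LPS in shielded mice (6119 and 6619 with TMM), and 2656 and 6520 in unshielded mice (4585 and 3543).

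Leaving out single libraries gave 5 to 6 genes of 6 called for LPS in shielded mice, 6 to 6 in unshielded mice, 2 to 3 of 9 for the shield without LPS, 4 to 4 at 2-fold after LPS and 0 to 0 for the difference of LPS effects. All-gene counts moved by over 1.5 times for the shield without LPS (1139 without shielded library 2, 1171 and 1094 without unshielded library 1 or 3, all without LPS). After LPS, genes higher in unshielded mice went from 3596 to 2134 and 2242 without shielded LPS library 1 or 2, to 2313 with only the compared groups and to 2250 with the block in those groups. For the difference of LPS effects they moved to 1571 with no filter, and, leaving out 1 library, to 6391 (shielded LPS 3), 1615 (shielded 3, no LPS) and 1635 (unshielded 2, no LPS).

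Signs turned for values of the 9 genes that were not called, and the cause was not tested. For the difference of LPS effects, Vcan was 0.013 and Plaur 0.008 with library totals, 0.059 and 0.046 with no filter, 0.369 and 0.073 without the conflicting libraries, and 0.81 and 0.62 grouped by the field, when Mmp14 was 0.48. Leaving out 1 library gave Vcan -0.31 to 0.218, Plaur -0.18 to 0.025 and Timp1 -0.328 to 1.826. For the shield without LPS, Vcan was -0.356 and Thbs1 -0.062 without the conflicting libraries, -0.35 and -0.051 grouped by the field, and leaving out 1 library gave Vcan -0.199 to 0.292 and Timp1 -1.286 to 0.867. Hspg2, called as lower with LPS in shielded mice at -1.21, had 0.028 grouped by the field.

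With the replicate number as a block, Plau was called for LPS in shielded mice (-0.48, and -0.50 in those groups alone, an alternative chosen after seeing the data). The block in 2 groups alone called 3405 genes for the shield without LPS, Plau among them (0.43). In neither comparison are the numbers shown to pair the libraries. The block changed no other call on the 9 genes or the named list genes. Timp1 without LPS, at 2 to 19 counts, is limited by depth.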
